A study of Homo sapiens with 12 samples.

Results

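A panel of 10 target genes of the transcription factor p53 was described in HCT116, a human colorectal cancer cell line. The panel was picked by name from general knowledge of the pathway, but with earlier results of these data known. It holds CDKN1A, BTG2, MDM2, BBC3, FAS, TP53INP1, TP53I3, SESN1, RRM2B and ZMAT3. All 10 were found among the 25733 genes of the deposited table, and all 10 were among the 12341 genes that were tested. RNA was sequenced from 12 libraries in 4 groups of 3. The control cells were untreated by their labels, and the other groups received NH4Cl as a source of ammonia, TGF-β, or NH4Cl plus TGF-β. By the methods of the study, NH4Cl was given at 10 mM for 24 h, and TGF-β at 200 pM for 1 h after 23 h of vehicle or NH4Cl. The labels name the treatments with no dose or time. HCT116 is commonly described as lacking a functional type II TGF-β receptor, which limits it as a model of the TGF-β response.

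In unstressed cells p53 is kept low by MDM2, a ubiquitin ligase, and by its relative MDM4. DNA damage and several other stresses release p53 from this control, and it then raises the transcription of genes that halt the cell cycle, start apoptosis, repair DNA or handle oxidants. MDM2 is itself a target, so that the pathway holds a feedback loop. In HCT116 cells this response is widely used as a model, with CDKN1A, the gene for the cyclin-dependent kinase inhibitor p21, as its usual marker. The measurements addressed whether such genes differed in the cells in which GDF15, a secreted stress factor that p53 and the stress factor ATF4 can both induce, was higher after NH4Cl.

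Values are FPKM, which scale reads by exon length and by the reads of the library. With exon lengths from GENCODE release 29 on GRCh38, 100% of the values above 0 lay within 0.1 of a whole number of reads, so that libraries held 14807630 to 18191998 reads (median 15484798). Among the 10 genes, the fewest reads in a library were 85, for SESN1, and the most were 1875, for BBC3. Counting error alone was therefore 10.8% of the value at the lowest and 2.31% at the highest. Epithelial markers were present in every library, with EPCAM at 229 to 278 FPKM, KRT8 at 754 to 1102 FPKM and VIL1 at 81.5 to 101 FPKM, while CEACAM5 was near 0 at 0.0193 to 0.282 FPKM. Markers of fibroblasts summed to 7.87 to 10.9 FPKM, mostly LUM at 6.56 to 8.76 FPKM, those of endothelial cells to 1.56 to 6.84 FPKM, mostly VWF, and those of immune cells to 0.289 to 1.13 FPKM over the 3 of 4 listed in the table. The sums of the 8 epithelial markers in replicates 1, 2 and 3 were 2620, 2503 and 3465 FPKM in control cells, 2608, 2523 and 3579 FPKM with TGF-β, 2387, 2419 and 3074 FPKM with NH4Cl and 2610, 2492 and 3212 FPKM with both. They were highest in replicate 3 of each group, and lower with NH4Cl than in control cells in each number, while in the presence of TGF-β they were lower with NH4Cl in replicates 2 and 3. The endothelial sums in replicates 1, 2 and 3 were 1.72, 1.93 and 4.17 FPKM in control cells, 1.88, 1.56 and 4.35 FPKM with TGF-β, 2.70, 2.99 and 5.85 FPKM with NH4Cl and 2.66, 2.81 and 6.84 FPKM with both. The fibroblast sums were 7.87, 8.34 and 10.4 FPKM in control cells, 8.66, 8.38 and 9.58 FPKM with TGF-β, 9.84, 9.85 and 10.8 FPKM with NH4Cl and 9.98, 9.35 and 10.9 FPKM with both. Both sums were thus higher with NH4Cl than without it in each replicate number and highest in replicate 3 of each group. COL1A1, of the fibroblast list, was at 1.14 to 2.62 FPKM. The remaining markers of these lists were lower in every library, with COL1A2, COL3A1 and DCN at most at 0.0185, 0.0270 and 0.0458 FPKM, PECAM1 at most at 0.0911 FPKM and CDH5 at most at 0.355 FPKM. In bulk RNA, fewer cells that express a gene and less RNA in each cell cannot be told apart.

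The replicate 3 libraries stood apart from the others in all 4 groups. The share of mitochondrial genes was 4.50 to 5.12% of reads there, against 2.46 to 3.18% in replicates 1 and 2. A chi-square value per gene, which is 1 for counting error alone, was 1.86 to 5.95 when replicates 1 and 2 were compared within groups. It was 31.6 to 45.5 when replicate 3 was compared with either. Libraries with the same replicate number deviated together, which does not show whether replicates 1 and 2 are paired by number. Each comparison is therefore given without and with the replicate number as a block, a term that compares libraries of the same number with each other. The labels do not say whether replicates came from separate cultures, so p-values measure only the spread between these libraries.

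The genes spanned a wide range of levels in control cells (mean ± SD, n = 3). BTG2, an antiproliferative gene that slows the cycle, was the highest of the panel at 25.8 ± 0.943 FPKM. BBC3, CDKN1A and TP53I3 followed at 15.5 ± 5.72, 15.1 ± 3.26 and 9.81 ± 1.90 FPKM. RRM2B and MDM2 were lower at 4.95 ± 0.204 and 4.05 ± 0.327 FPKM. The lowest levels were those of FAS at 2.11 ± 0.265 FPKM, TP53INP1 at 1.96 ± 0.362 FPKM, ZMAT3 at 1.57 ± 0.0477 FPKM and SESN1 at 1.50 ± 0.135 FPKM. In this order the control libraries of BBC3 and CDKN1A overlapped, as did those of FAS and TP53INP1 and those of ZMAT3 and SESN1, while the other neighbours did not. Over all 12 libraries, mean levels ran from the 10.3 percentile of the genes tested, for SESN1, to the 85.4 percentile, for BTG2. BBC3 had the widest range over the libraries among the 10 genes, with a highest value 3.19 times its lowest, and RRM2B the narrowest, at 1.23 times.

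**Figure D1:**
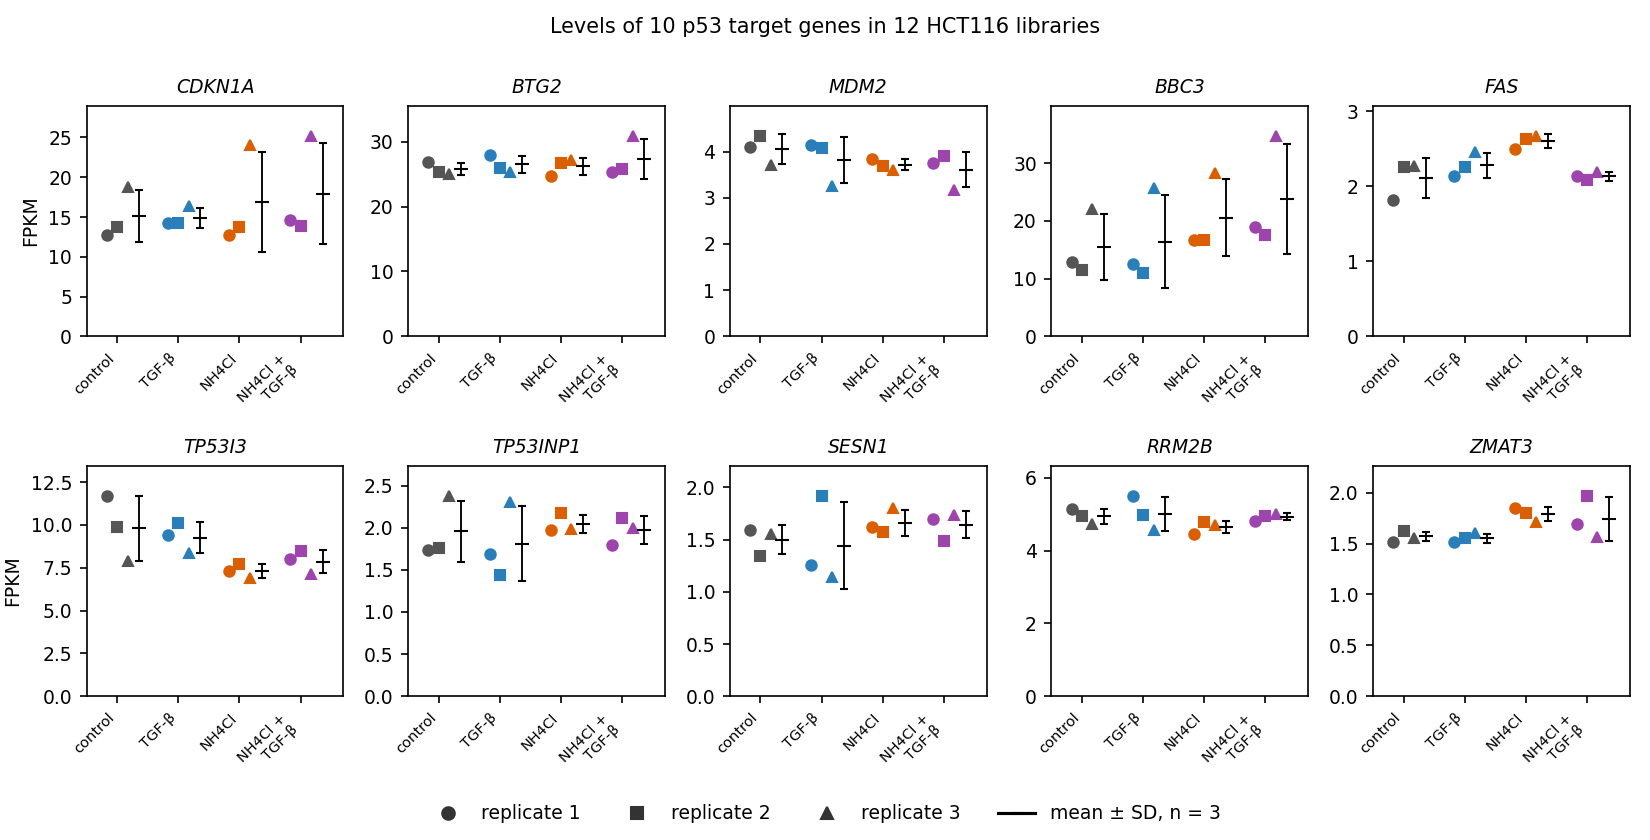
FPKM of each of the 10 p53 target genes (vertical axes, from 0) in the 12 libraries by group (horizontal axes), with circles, squares and triangles for replicates 1, 2 and 3 and bars for the mean ± SD of 3 libraries. BBC3 is higher in each NH4Cl library than in the library of the same number without NH4Cl, and its replicate 3 libraries, at 22.0 to 34.7 FPKM, lie above all others.

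Promoters are shown for the genes whose RNA passed the test below, and for MDM2 and SESN1 because of their sequence. RefSeq windows on GRCh38.p14 hold 250 bases before and 50 after a transcript start. They were used for 8 of the 10 genes, 16 windows in all. No window was matched for RRM2B and TP53INP1. Each window was searched for the p53 response element consensus, which has 20 bases and reads the same on both strands. A match kept its 4 fixed bases and departed from it at no more than 3 of the others. Such a match was in 1.12% of all 35116 windows, with no chromosome left out, and in 4 windows of the panel, from MDM2, FAS and SESN1. The MDM2 match departed at 2 bases and lay at chr12:68808923-68808942 in a pair of overlapping windows, of which chr12:68808767-68809066 on the plus strand is shown. The FAS match departed at 2 bases and lay at chr10:88991309-88991328 in the window chr10:88991181-88991480 on the plus strand. The SESN1 match departed at 3 bases and lay at chr6:109009018-109009037 in the window chr6:109008939-109009238 on the minus strand. The BBC3 window chr19:47232618-47232917 and the TP53I3 window chr2:24084785-24085084, both on the minus strand, held none, which says only that these letters are not in them. Capitals mark the match.
MDM2: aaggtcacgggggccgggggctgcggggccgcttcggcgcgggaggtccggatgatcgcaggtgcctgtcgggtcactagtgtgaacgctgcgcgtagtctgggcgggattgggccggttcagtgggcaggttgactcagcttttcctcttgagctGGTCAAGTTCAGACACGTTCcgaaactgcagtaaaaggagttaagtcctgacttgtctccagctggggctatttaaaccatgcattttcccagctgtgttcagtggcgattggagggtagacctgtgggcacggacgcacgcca
FAS: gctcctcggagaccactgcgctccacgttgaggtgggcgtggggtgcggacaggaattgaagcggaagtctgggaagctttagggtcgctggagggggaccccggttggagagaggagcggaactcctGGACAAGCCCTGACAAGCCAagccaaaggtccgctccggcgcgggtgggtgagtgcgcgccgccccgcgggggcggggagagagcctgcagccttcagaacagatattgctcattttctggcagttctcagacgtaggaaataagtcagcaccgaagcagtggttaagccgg
SESN1: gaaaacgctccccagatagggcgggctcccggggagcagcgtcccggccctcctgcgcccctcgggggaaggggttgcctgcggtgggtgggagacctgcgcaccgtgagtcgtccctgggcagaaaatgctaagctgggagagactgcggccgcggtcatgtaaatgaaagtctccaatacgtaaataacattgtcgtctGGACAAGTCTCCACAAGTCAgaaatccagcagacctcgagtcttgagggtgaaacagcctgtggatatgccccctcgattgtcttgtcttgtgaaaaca
BBC3: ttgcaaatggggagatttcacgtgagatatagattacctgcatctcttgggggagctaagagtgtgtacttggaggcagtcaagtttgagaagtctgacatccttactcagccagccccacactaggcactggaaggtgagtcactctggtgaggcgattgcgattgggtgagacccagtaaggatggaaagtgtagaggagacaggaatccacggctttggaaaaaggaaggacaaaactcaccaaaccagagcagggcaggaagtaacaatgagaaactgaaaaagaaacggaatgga
TP53I3: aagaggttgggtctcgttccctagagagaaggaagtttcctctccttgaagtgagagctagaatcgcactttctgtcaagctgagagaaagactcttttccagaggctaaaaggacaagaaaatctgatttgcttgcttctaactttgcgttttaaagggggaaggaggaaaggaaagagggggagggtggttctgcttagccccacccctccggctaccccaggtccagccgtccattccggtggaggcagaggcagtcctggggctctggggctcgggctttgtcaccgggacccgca

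In cells given NH4Cl alone, BBC3 and FAS were higher and TP53I3 was lower than in control cells, and the other 7 genes of the panel did not pass the test. The fold changes, on the scale of FPKM + 1, were 1.31 for BBC3, 1.16 for FAS and 0.78 for TP53I3, with n = 3 in each group. These calls were made with the replicate number as a block, where 3 of 10 genes passed the threshold of an adjusted p under 0.05 (limma, Benjamini-Hochberg over all genes tested) against 13.6% of all genes, 1674 of 12341. Without the block, 0 of 10 genes passed, against 0.381% of all genes, 47 of 12341, and 2 had an unadjusted p under 0.05, against 10.8% of all genes, 1333 of 12341. The median log2 fold change of the panel, on the scale of log2(FPKM + 1), was 0.07, beside 0.00 over all genes tested, and 7 of 10 genes were above 0. Libraries of the groups did not overlap for FAS, ZMAT3 and TP53I3, 3 of 10 genes, against 17.5% of all genes. Counts of 3 in a panel of 10 are few, and nothing particular to the panel is read from them.

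BBC3 (ENSG00000105327, chr19:47220822-47232766, minus strand) encodes PUMA, which starts apoptosis at mitochondria. Its level was 12.8, 11.5 and 22.0 FPKM in control replicates 1, 2 and 3, and 16.6, 16.7 and 28.2 FPKM with NH4Cl. Every NH4Cl library was above the control library of its number, by 0.34, 0.50 and 0.34 on the log2 scale, but control replicate 3 lay above NH4Cl replicates 1 and 2, so that the groups overlapped. The log2 fold change was 0.39, with an SE of 0.37 and an adjusted p of 0.809 without the block, and an SE of 0.07 and an adjusted p of 0.00514 with it. Without the block, leaving out 1 library moved the log2 fold change to between 0.15, without NH4Cl replicate 3, and 0.66, without control replicate 3, and it was 0.29 without control replicate 1 and 0.22 without control replicate 2. With the block, BBC3 stayed past the threshold with any 1 of the 6 libraries left out, at adjusted p of 0.00493 to 0.0290. It was no longer past it without replicate 1 as a whole (adjusted p of 0.0750) or without replicate 2 as a whole (adjusted p of 0.0598), the only ones of 12 alternatives with the block that ended the call.

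TP53I3 (ENSG00000115129, chr2:24077433-24085861, minus strand) encodes a quinone oxidoreductase linked to oxidative stress and known as PIG3. It was measured at 11.7, 9.87 and 7.88 FPKM in the control libraries and at 7.31, 7.70 and 6.88 FPKM with NH4Cl. The NH4Cl libraries lay below all of the control libraries, and the gap was widest for replicate 1, whose difference was -0.61 on the log2 scale, against -0.32 and -0.17 for replicates 2 and 3. Its log2 fold change of -0.37 had an SE of 0.12 and an adjusted p of 0.258 without the block, and an SE of 0.07 and an adjusted p of 0.0120 with it. With the block the adjusted p was 0.0571 without NH4Cl replicate 1, 0.0521 without NH4Cl replicate 2, 0.0825 without replicate 1 as a whole and 0.115 without replicate 2 as a whole. Over all 12 alternatives with the block it ran from 0.00991 to 0.115, and 8 kept the call. Without control replicate 1 the log2 fold change was -0.25, with an adjusted p of 0.0226.

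FAS (ENSG00000026103, chr10:88990582-89015785, plus strand) encodes a death receptor of the cell surface. Control libraries had 1.81, 2.26 and 2.27 FPKM and NH4Cl libraries 2.50, 2.63 and 2.67 FPKM, from 130 to 183 reads in each of the 12 libraries. All NH4Cl libraries were thus above all control libraries, with control replicate 1 the lowest of all. The log2 fold change was 0.21, with an SE of 0.07 and an adjusted p of 0.299 without the block, and an SE of 0.06 and an adjusted p of 0.0468 with it. This call was lost under 11 of 12 alternatives with the block, among them each library and each replicate number left out, scaling to a common sum (adjusted p of 0.0524) and centring on the median (adjusted p of 0.0631). Its adjusted p was 0.0741 to 0.195 with a library left out, and 0.0487 to 0.293 over those 12. ACTA2 overlaps 8.93% of the FAS exon length on the opposite strand, at a mean of 0.922 FPKM, and no source says whether reads were counted by strand.

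CDKN1A (ENSG00000124762, chr6:36676460-36687339, plus strand) was at 12.8, 13.7 and 18.8 FPKM in control libraries and at 12.8, 13.8 and 24.1 FPKM with NH4Cl. Replicates 1 and 2 differed between the groups by 0.00 and 0.01 on the log2 scale and replicate 3 by 0.34, and the groups overlapped. The log2 fold change was 0.12, with an adjusted p of 0.956 without the block and 0.544 with it, where its 95% interval ran from -0.14 to 0.37. Left out, NH4Cl replicate 3 took it to -0.15 without the block. BTG2 (ENSG00000159388, chr1:203305491-203309602, plus strand), the other gene of the panel that slows the cell cycle, measured 26.8, 25.4 and 25.1 FPKM in control libraries and 24.7, 26.7 and 27.2 FPKM with NH4Cl, with a log2 fold change of 0.02 and a 95% interval of -0.14 to 0.18 with the block. With the block neither gene passed the threshold under any of 12 alternatives.

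MDM2 (ENSG00000135679, chr12:68808176-68850686, plus strand) was at 4.11, 4.34 and 3.70 FPKM in control libraries and 3.84, 3.68 and 3.60 FPKM with NH4Cl. Each NH4Cl library was lower than the control library of its number, by 0.03 to 0.19 on the log2 scale, and the groups overlapped. Its log2 fold change was -0.10, with an adjusted p of 0.803 without the block and 0.285 with it. The remaining genes of the panel were TP53INP1 (ENSG00000164938), which takes part in apoptosis and autophagy, SESN1 (ENSG00000080546), a sestrin that restrains mTORC1 signaling, RRM2B (ENSG00000048392), which supplies deoxynucleotides for DNA repair, and ZMAT3 (ENSG00000172667), an RNA-binding protein. Their log2 fold changes were 0.05, 0.09, -0.07 and 0.12, with adjusted p of 0.268 to 0.806 with the block and 0.600 to 0.967 without it. ZMAT3 was the single one of these whose groups did not overlap, at 1.52, 1.62 and 1.55 FPKM in control libraries and 1.85, 1.80 and 1.71 FPKM with NH4Cl.

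**Figure D2:**
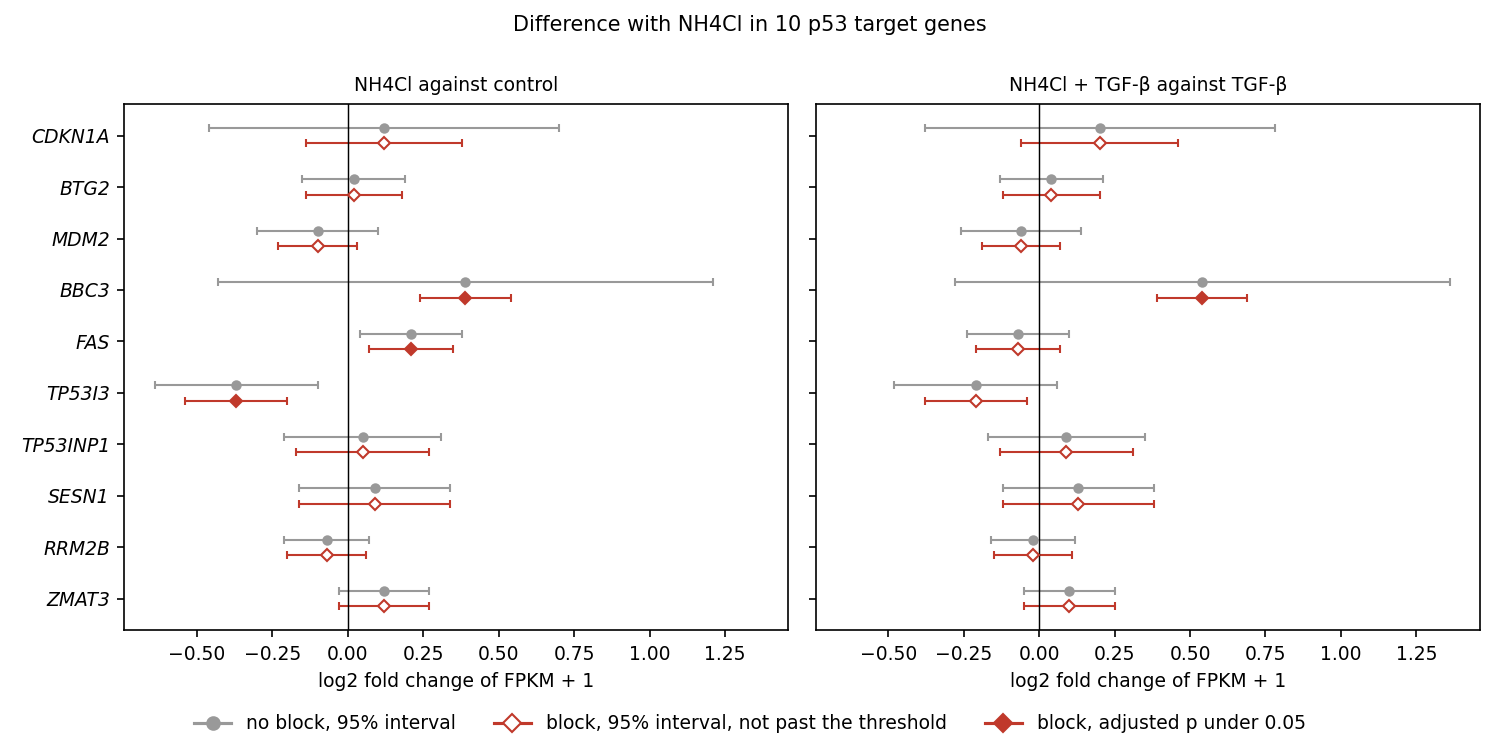
Log2 fold change of FPKM + 1 (horizontal axes) for the 10 genes (vertical axis) with NH4Cl in the absence (left) and presence (right) of TGF-β, with 95% intervals from limma without the block (grey) and with the replicate number as a block (red, filled where the adjusted p was under 0.05). BBC3, at 0.39 and 0.54, is filled in both panels, and FAS, at 0.21, and TP53I3, at -0.37, in the left panel.

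The same question was asked in cells that also received TGF-β, where 1 gene, BBC3, was higher with NH4Cl and the other 9 genes of the panel did not pass the test. With the block this was 1 of 10 genes, against 18.8% of all genes, 2322 of 12341. Without it 0 of 10 passed in limma, against 1.03% of all genes, 127 of 12341, and 0 had an unadjusted p under 0.05, against 13.3% of all genes, 1642 of 12341. The median log2 fold change of the panel was 0.07, against 0.00 over all genes. No gene of the panel had groups that did not overlap, against 16.3% of all genes. These 6 libraries are not shared with the comparison of NH4Cl with control. All 12 libraries enter each fit, however, so the tests share the estimate of the spread and, with the block, the replicate terms.

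BBC3 measured 12.6, 10.9 and 25.6 FPKM in the TGF-β libraries and 19.0, 17.6 and 34.7 FPKM with NH4Cl plus TGF-β. Each library with NH4Cl was again above the library of its number, by 0.56, 0.64 and 0.43 on the log2 scale, and TGF-β replicate 3 was above replicates 1 and 2 with both agents. Its log2 fold change was 0.54, with an SE of 0.37 and an adjusted p of 0.603 without the block, and an SE of 0.07 and an adjusted p of 0.000892 with it. Without the block it was 0.25 without replicate 3 of both agents, 0.32 without TGF-β replicate 2 and 0.90 without TGF-β replicate 3. With the block BBC3 was past the threshold under all 12 alternatives run for this comparison, at adjusted p of 0.000516 to 0.0348. Its group means in ascending order were 15.5 ± 5.72 FPKM in control, 16.4 ± 8.05 FPKM with TGF-β, 20.5 ± 6.66 FPKM with NH4Cl and 23.8 ± 9.52 FPKM with both (SD, n = 3), and each mean differed from the next by less than these SDs.

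TP53I3 was at 9.38, 10.1 and 8.33 FPKM in the TGF-β libraries and 8.00, 8.46 and 7.11 FPKM with both agents. It was lower with NH4Cl in each of the 3 numbers, by 0.20 to 0.23 on the log2 scale, with replicate 3 of TGF-β below replicate 2 with both. Its log2 fold change of -0.21 had an adjusted p of 0.509 without the block and 0.0753 with it. FAS did not pass here, with 2.13, 2.26 and 2.46 FPKM in the TGF-β libraries and 2.13, 2.08 and 2.19 FPKM with both, and a log2 fold change of -0.07 (adjusted p of 0.796 without and 0.495 with the block in limma). The difference between the settings did not pass for FAS, whose interaction was -0.28 with an SE of 0.11 and an adjusted p of 1.000 without the block, and an SE of 0.09 and an adjusted p of 0.992 with it. With TGF-β alone CDKN1A had 14.2, 14.3 and 16.4 FPKM, against 14.6, 13.9 and 25.2 FPKM with both. As in the absence of TGF-β, only its replicate 3 libraries differed between the groups by more than 0.04 on the log2 scale, at 0.60. The log2 fold change was 0.20, with a 95% interval of -0.05 to 0.46 and an adjusted p of 0.255 with the block, and it was -0.06 without the block when replicate 3 of both agents was left out. The other 6 genes had log2 fold changes from -0.06 for MDM2 to 0.13 for SESN1, with adjusted p of 0.342 to 0.855 with the block.

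**Figure D3:**
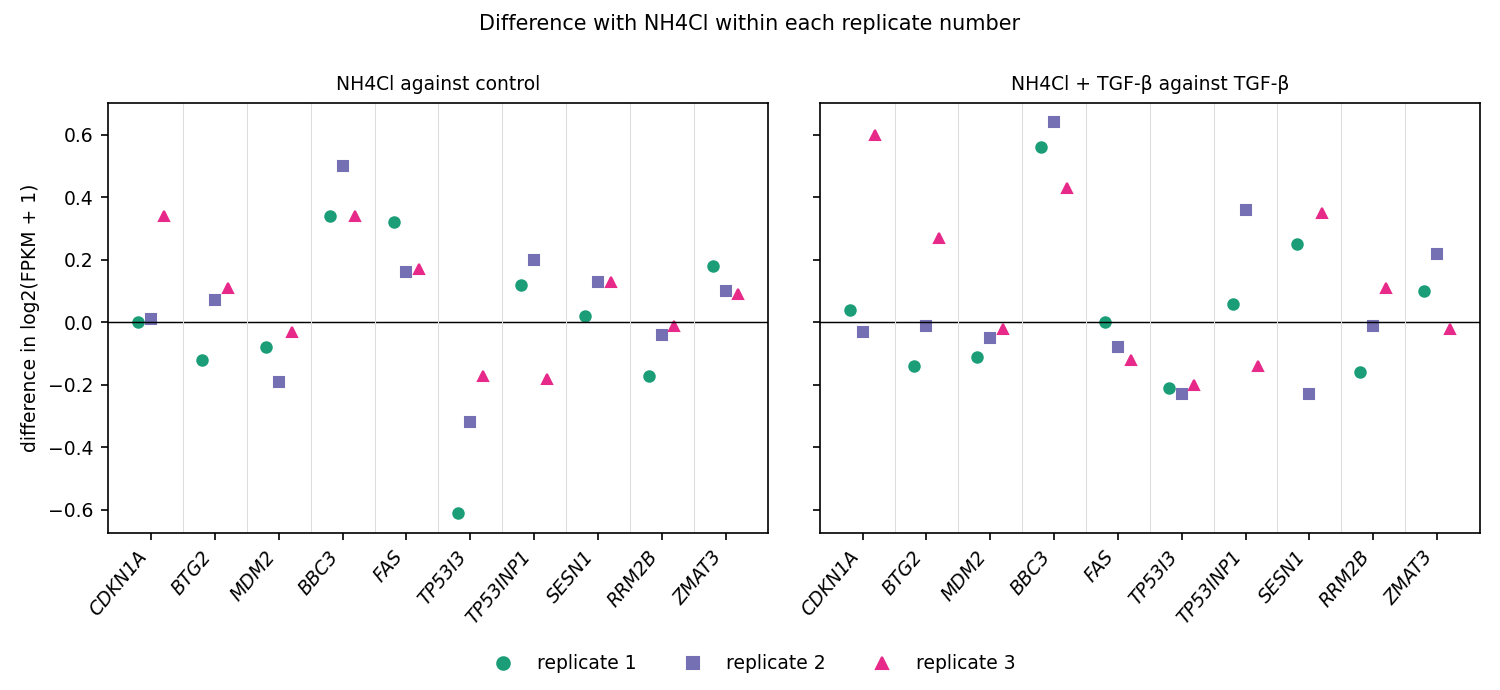
Difference in log2(FPKM + 1) between libraries of the same replicate number (vertical axis) with NH4Cl in the absence (left) and presence (right) of TGF-β, for the 10 genes (horizontal axes), with circles, squares and triangles for replicates 1, 2 and 3. BBC3 lies above 0 and TP53I3 and MDM2 lie below 0 in all 3 numbers of both panels, whereas CDKN1A stands off 0 in replicate 3, at 0.34 and 0.60. All 3 numbers had the same sign for 8 and 3 of the 10 genes, against 51.7% and 50.5% of all genes.

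Levels in all 4 groups were compared for each gene (mean ± SD, n = 3, in the order control, TGF-β, NH4Cl and both agents). CDKN1A was at 15.1 ± 3.26, 14.9 ± 1.23, 16.9 ± 6.25 and 17.9 ± 6.35 FPKM. BTG2 was at 25.8 ± 0.943, 26.5 ± 1.35, 26.2 ± 1.33 and 27.3 ± 3.08 FPKM. For both of these cell cycle genes the groups lay closer together than the largest SD. MDM2 was at 4.05 ± 0.327, 3.82 ± 0.501, 3.71 ± 0.119 and 3.61 ± 0.382 FPKM, again within the spread between neighbours in that order. Among the apoptotic genes, FAS had 2.11 ± 0.265, 2.28 ± 0.168, 2.60 ± 0.0901 and 2.13 ± 0.0555 FPKM, with NH4Cl alone the highest and its libraries above all others. TP53INP1 had 1.96 ± 0.362, 1.81 ± 0.445, 2.04 ± 0.108 and 1.97 ± 0.165 FPKM, with overlapping libraries throughout. TP53I3 was lowest with NH4Cl alone, at 9.81 ± 1.90, 9.26 ± 0.883, 7.30 ± 0.410 and 7.86 ± 0.689 FPKM. SESN1 was at 1.50 ± 0.135, 1.44 ± 0.417, 1.66 ± 0.121 and 1.64 ± 0.129 FPKM. RRM2B was at 4.95 ± 0.204, 5.02 ± 0.467, 4.66 ± 0.168 and 4.93 ± 0.0995 FPKM, and its 4 groups differed by less than the SD with TGF-β. ZMAT3 was at 1.57 ± 0.0477, 1.55 ± 0.0404, 1.79 ± 0.0703 and 1.74 ± 0.213 FPKM, so that both groups with NH4Cl had the higher means and the lowest library with both agents, at 1.56 FPKM, lay below control replicate 2, at 1.62 FPKM, and below TGF-β replicate 3, at 1.60 FPKM.

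Exposure to TGF-β for 1 h was followed by no call in the panel. In cells with no NH4Cl, 0 of 10 genes passed in limma, with 0 at an unadjusted p under 0.05, and the log2 fold changes lay between -0.08 and 0.08, with a median of 0.00. Over all genes 0% passed without the block, with 103 at an unadjusted p under 0.05, and 0.00810% with it, with 422 at an unadjusted p under 0.05. The gene that passed was ID1, a TGF-β family target named after its values were seen, and with the block no gene passed as higher when any control library, TGF-β replicate 1 or 2, or replicate number 1 or 2 as a whole was left out. In cells with NH4Cl, TGF-β again gave 0 of 10 genes without the block, with 1 at an unadjusted p under 0.05, and 0 of 10 with it, with 2 at an unadjusted p under 0.05. The log2 fold changes lay between -0.20 and 0.18. Over all genes 0% passed without the block, with 165 at an unadjusted p under 0.05, and 0.00810% with it, with 879, or 7.12%, at an unadjusted p under 0.05. The gene that passed was again ID1, and with the block 0 genes passed when values were scaled to a common sum or when any of the 6 libraries was left out. Groups did not overlap for 0 of 10 genes in the absence of NH4Cl, against 3.56% of all genes, and for 2 of 10, FAS and RRM2B, in its presence, against 4.61%.

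The interaction, which asks whether the difference with NH4Cl depended on TGF-β, was passed by 0 of 10 genes in limma in either fit, FAS and TP53I3 included, with 1 at an unadjusted p under 0.05, and by 0% of all genes, with 115 at an unadjusted p under 0.05 without the block and 537 with it. Cells given both agents were also compared with control cells, which are the control libraries used above. Without the block 0 of 10 genes passed in limma, against 0.948% of all genes, and 1 had an unadjusted p under 0.05, against 13.1% of all genes. With the block 2 of 10 passed, against 18.4%. These were BBC3, at a log2 fold change of 0.58 with an SE of 0.07 and an adjusted p of 0.000676 with the block, and TP53I3, at -0.28 with an SE of 0.07 and an adjusted p of 0.0303. TP53I3 was past the threshold in 1 of 6 fits with a library left out, without control replicate 3 (adjusted p of 0.0184), and in the other 5 its adjusted p was 0.0589 to 0.109. Over all 12 alternatives it was 0.0184 to 0.157. Without control replicate 1 its log2 fold change was -0.16. For BBC3 without the block, the adjusted p was 0.576. Its log2 fold change in that fit was 0.28 without replicate 3 of both agents and 0.85 without control replicate 3.

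Within the panel, replicate 3 was set apart in both directions. CDKN1A, BBC3 and FAS were highest in replicate 3 in all 4 groups, and MDM2 and TP53I3 were lowest in it in all 4 groups. Of all genes tested, 25.0% were highest and 25.3% lowest in replicate 3 throughout. For BBC3 the replicate 3 library exceeded the mean of replicates 1 and 2 by 0.73 to 1.07 on the log2 scale, which is more than its difference with NH4Cl. For CDKN1A that excess was 0.19 with TGF-β and 0.48 in control cells, and 0.81 with NH4Cl and 0.78 with both. With replicates 1 and 2 alone and no block, 2 of 10 genes passed for NH4Cl against control, BBC3 at a log2 fold change of 0.42 with an adjusted p of 0.0182 and TP53I3 at -0.46 with an adjusted p of 0.0132, while FAS, at 0.24, did not (adjusted p of 0.130). Of all genes, 1293 of 12341 passed in that fit. In the presence of TGF-β, 1 of 10 passed, BBC3 at 0.60 with an adjusted p of 0.00442, beside 1740 of 12341 over all genes. CDKN1A was then at 0.01 against control and did not pass, with an adjusted p of 0.948. The part of the higher mitochondrial share of the replicate 3 libraries in these values was not tested.

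A list of 17 genes that regulate p53 or are related to it was compared next, of which 16 were tested. With NH4Cl against control, CDKN2A was higher and 0 genes were lower with the block, 6.25% of the list against 13.6% of all genes. Against TGF-β, CDKN2A was again higher, and 3 genes were lower, which were the p53 relative TP73, the acetyltransferase gene CREBBP and the ubiquitin ligase gene HUWE1. TP73 and CREBBP were named after their values were seen. That was 25.0% of the list against 18.8% of all genes. The list medians were -0.01 and -0.04, and 0 genes passed without the block in either comparison. CDKN2A, whose products include ARF, a restraint on MDM2, had log2 fold changes of 0.17 and 0.18. Its adjusted p was 0.0155 and 0.0103 with the block, and it passed in 7 and 9 of 12 alternatives. Values per gene do not tell its products apart. MDM4, the partner of MDM2, was at 1.49, 1.42 and 1.82 FPKM in control libraries and 1.74, 1.71 and 2.14 FPKM with NH4Cl, with a log2 fold change of 0.15 and an adjusted p of 0.145 with the block. HUWE1 had log2 fold changes of -0.15 and -0.23, with adjusted p of 0.182 and 0.0439 with the block. Its call against TGF-β held in 2 of 12 alternatives with the block, over which the adjusted p ran from 0.0397 to 0.160, and it was lost with any library left out. RNA levels do not report the activity of p53, which was not measured here.

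A further list held 42 p53 targets, of which 35 were tested. It was drawn up with the rise of GDF15 in these data known, so nothing is read from its shares of calls. With the block, 4 were higher and 5 lower with NH4Cl against control, 25.7% of the list beside 13.6% of all genes, and 6 were higher and 4 lower against TGF-β, 28.6% of the list beside 18.8% of all genes, with 0 in either without the block. Higher against control were GDF15, CCNG1 and the TRAIL receptor genes TNFRSF10A and TNFRSF10B, and lower were PLK2, CD82, FDXR, PERP and PHLDA3. Against TGF-β the 6 higher ones were GDF15, CCNG1, TNFRSF10A, TNFRSF10B, DDIT4 and GADD45A, and the 4 lower ones were PLK2, PERP, ASCC3 and BLOC1S2. GDF15, PLK2, DDIT4 and TNFRSF10A are among the genes named for the size of their change, and the others were named because they passed. The list medians were 0.02 and 0.05. GDF15 had the largest log2 fold change of the list, with 6.62, 7.53 and 11.5 FPKM in control libraries and 16.8, 16.2 and 23.8 FPKM with NH4Cl, so that the groups did not overlap. Its log2 fold change was 1.08, with an SE of 0.24 and an adjusted p of 0.0995 without the block, and an SE of 0.06 and an adjusted p of 2.09e-05 with it. In the presence of TGF-β it was 1.07, with an adjusted p of 0.0770 without the block and 1.75e-05 with it. When values were scaled to a common sum, GDF15 passed without the block in both comparisons (adjusted p of 0.0475 and 0.0398 in limma). TNFRSF10A, a death receptor for TRAIL, had log2 fold changes of 0.32 and 0.24 (adjusted p of 0.00866 and 0.0249 with the block), and passed in 10 and 5 of 12 alternatives. PLK2, a kinase of the cell cycle, had log2 fold changes of -0.35 and -0.36 (adjusted p of 0.00272 and 0.00185 with the block), and passed in 10 and 11 of 12 alternatives, with adjusted p of up to 0.0815 and 0.0555.

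Cell cycle genes that p53 is known to lower through p21 were listed as well, and 19 of 20 were tested. With the block, 1 was higher and 4 lower with NH4Cl against control, 26.3% of the list beside 13.6% of all genes, and 2 were higher and 6 lower against TGF-β, 42.1% beside 18.8%. The list medians were -0.03 and -0.04, and 0 genes passed without the block. MCM5, part of the replicative helicase, was at 16.2, 15.8 and 8.95 FPKM in control libraries and 11.2, 11.1 and 6.46 FPKM with NH4Cl. Its replicate 3 libraries were lowest in each group, and its log2 fold change was -0.46 (adjusted p of 0.000365 with the block). MYBL2, a transcription factor of the cell cycle, and CDC20, an activator of the anaphase-promoting complex, had log2 fold changes of -0.23 and -0.22 (adjusted p of 0.0257 and 0.00531 with the block), and passed in 6 and 10 of 12 alternatives. The other gene lower against control was E2F1, a factor that drives entry into S phase, and the higher one was the mitotic kinase gene AURKA, joined by the kinase gene CDK1 against TGF-β. All of the genes lower against control were also lower against TGF-β, together with FOXM1, a transcription factor of dividing cells, and KIF23, a mitotic kinesin. There MCM5 passed in 12, MYBL2 in 10 and CDC20 in 6 of 12 alternatives with the block, and the CDC20 call held in 2 of 6 fits with a library left out (adjusted p of 0.0110 to 0.162 over the 12). E2F1, AURKA, CDK1, FOXM1 and KIF23 were picked with their values in view.

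Stress genes that both p53 and ATF4 are known to induce numbered 7, all tested, and 5 of them also stand in the list of further p53 targets. With the block, GDF15 and TNFRSF10B were higher with NH4Cl against control, 28.6% of the list beside 13.6% of all genes. Against TGF-β these and DDIT4 were higher, 42.9% beside 18.8% of all genes. The rise of GDF15 in these data was known when the list was drawn up, so nothing is read from these shares. With the block 0 of the 7 were lower, and without it 0 of 7 passed in either comparison. The DDIT4 call held in 7 of 12 alternatives with the block, over which its adjusted p ran from 0.0106 to 0.128. TNFRSF10B was picked with its values in view. The list medians were 0.12 and 0.15. DDIT4, an inhibitor of mTORC1, varied far more between replicates than between groups, at 8.84, 6.22 and 36.9 FPKM in control libraries and 9.95, 8.60 and 37.5 FPKM with NH4Cl. SESN2, the stress-induced relative of SESN1, had log2 fold changes of 0.19 and 0.20 and did not pass (adjusted p of 0.130 and 0.101 with the block). Against TGF-β it passed in 2 of 12 alternatives with the block, over which its adjusted p ran from 0.00638 to 0.438.

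For comparison, 10 ATF4 stress genes outside the p53 lists had 2 higher, TRIB3 and CEBPB, and 0 lower with NH4Cl against control with the block, 20.0% of the list beside 13.6% of all genes. Against TGF-β, 3 were higher, TRIB3, CEBPB and DDIT3, and 1 was lower, ATF5 (named once its values had been seen), 40.0% of the list beside 18.8% of all genes. The DDIT3 call held in 6 of 12 alternatives with the block and in 2 of 6 fits with a library left out, and its adjusted p ran from 0.0184 to 0.208 over the 12. The list medians were 0.07 and 0.17, and 0 passed without the block. TRIB3, a pseudokinase induced by ATF4, was at 84.4, 76.7 and 172 FPKM in control libraries and 128, 130 and 224 FPKM with NH4Cl, with a log2 fold change of 0.58 (adjusted p of 0.00229 with the block, and 0.00248 to 0.0625 over 12 alternatives, of which 11 kept the call). CEBPB, a transcription factor, and DDIT3, which encodes CHOP, had log2 fold changes of 0.22 and 0.30 (adjusted p of 0.00558 and 0.114 with the block). The CEBPB call against control held in 10 of 12 alternatives, with adjusted p of 0.00485 to 0.127. Replicate 3 was the highest library of each group for TRIB3, CEBPB and DDIT3, as it was for GDF15.

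**Figure D4:**
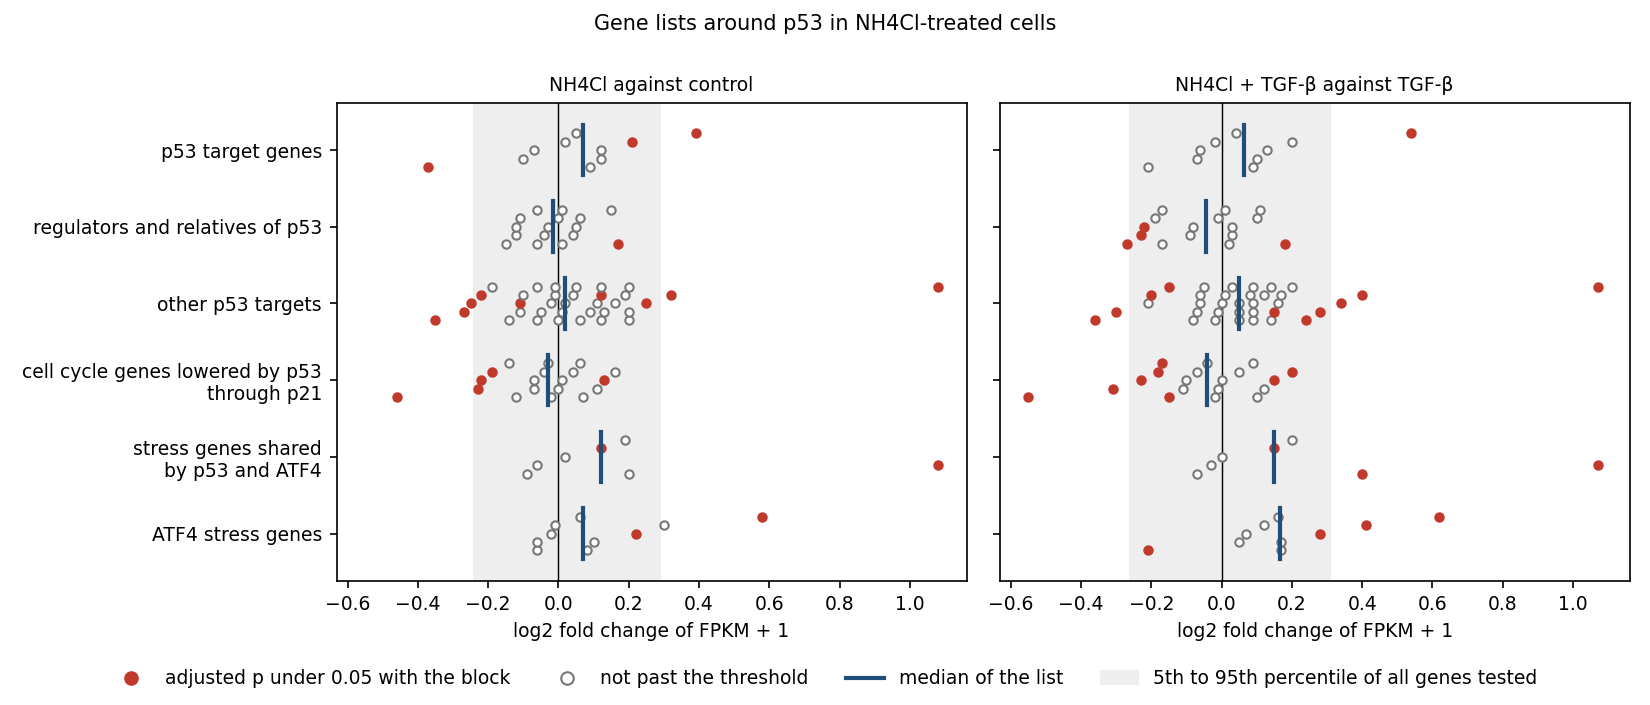
Log2 fold change of FPKM + 1 (horizontal axes) of each tested gene of the 6 lists (vertical axis) with NH4Cl in the absence (left) and presence (right) of TGF-β, filled where the adjusted p was under 0.05 with the replicate number as a block, with the list median as a bar and the 5 to 95 percentile range of all genes tested as a grey band. GDF15 is the point farthest to the right, at 1.08 and 1.07, and all list medians lie between -0.04 and 0.17.

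Genes whose pattern was most like that of CDKN1A were sought over the 12 libraries, after the mean of each replicate number had been subtracted from log2(FPKM + 1). Pearson correlations were highest for IPMK at 0.96, RSRC2, GRB2 and MBNL1 at 0.93 each, and ANLN at 0.91, among 12340 genes compared. These libraries share groups and replicate numbers, and the values are descriptions. CDKN1A spanned 16.4 to 25.2 FPKM in the 4 replicate 3 libraries and 12.8 to 14.6 FPKM in the other 8, so that the correlations rest mostly on those 4. Within the panel, the correlation with CDKN1A was 0.70 for BTG2 and 0.63 for SESN1, 0.41 for BBC3 and 0.38 for RRM2B. It was 0.02 for ZMAT3, -0.02 for FAS and -0.06 for MDM2, and lowest at -0.36 for TP53I3 and -0.46 for TP53INP1. BTG2 ranked 406 and SESN1 ranked 791 among the genes compared.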

How the data were processed

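RNA-seq of 12 HCT116 libraries was used as deposited. The authors deposited FPKM for 25733 genes. Their methods name HTSeq for counting, whereas the submitters' processing notes name Trimmomatic 0.36, STAR 2.5.2b, featureCounts of Subread 1.5.2, DESeq2 and GRCh38, and the kit for RNA extraction also differs between the methods and the labels. All columns of per-sample values were used.

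Tests used log2(FPKM + 1) of the 12341 genes whose mean FPKM reached 1. Group means were fitted with limma 3.58.1 in R 4.3.3 (intensity trend, two-sided, 6 comparisons), and p-values were adjusted by Benjamini-Hochberg over all genes tested, with a threshold of 0.05. The pseudocount of 1 understates the change of low genes. Deviations from the group means correlated at 0.349 to 0.774 for libraries that share a replicate number, above 0.1 in all 18 pairs, and at -0.655 to 0.486 for libraries of different groups and different numbers, above 0.1 in 12 of 36 pairs, so the numbers were taken as pairs. The pairing comes from these correlations, as the labels do not say what a number stands for. Deviations within a group sum to 0, so the distance of replicate 3 tends to put replicates 1 and 2 on the same side in each group. Same-number pairs of replicate 1 were at 0.349 to 0.431, below the highest pair of different numbers, at 0.486. The correlations thus set replicate 3 apart and cannot decide whether replicates 1 and 2 are paired by number. Positions and exon lengths were from GENCODE 29, promoters were from RefSeq on GRCh38.p14, and other steps used Python 3.11.15, numpy 2.4.6, pandas 2.3.3 and matplotlib 3.10.9.

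The members and the gene lists were chosen with earlier results of these data known, among them those of GDF15 and of replicate 3. Genes were named by rule: the 10 targets, MDM4, GDF15, the 3 genes of each further list with the largest absolute log2 fold change of NH4Cl against control, and the 5 genes most like CDKN1A. The other genes named as past the threshold in a list, and ID1, fall outside this rule and were chosen after their values were seen. A gene of the lists is not reported here. Alternatives were a pseudocount of 0.1, no filter or a mean FPKM of at least 5, scaling to a common sum (TPM), centring on the median, only the groups compared, the block, no intensity trend, replicates 1 and 2 alone, and each library or replicate number left out.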

Additional observations from a re-analysis of the deposited data

How the results depend on the processing

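The median log2 fold change over all genes tested moved by less than 0.1 under every scaling, and no gene of the panel changed sign under scaling or centring in either comparison with NH4Cl. For NH4Cl against control without the block, the 47 genes that passed were 70.2% higher. This was 58.9% of 56 after centring and 79.5% of 39 when scaled to a common sum. With the block, 54.7% of the 1674 genes that passed were higher. After centring with the block it was 46.6% of 1669, so that more were then lower than higher. Depth limits SESN1, FAS, TP53INP1 and ZMAT3 most, with a median of 129 to 258 reads. When a library was left out, the group of 2 was assumed to vary like the others. Causes of the changes below were not tested, except that fewer libraries or more genes enter some fits. The replicate block changed the panel's counts of calls as given here and in no other comparison.

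With the replicate block, the panel's calls went from 0 to 3 for NH4Cl against control, to 1 for NH4Cl + TGF-β against TGF-β and to 2 for NH4Cl + TGF-β against control. Its genes at an unadjusted p under 0.05 went from 2 to 3, 0 to 2 and 1 to 3 in these comparisons, beside 3585, 4124 and 4053 of all 12341 genes with the block, and from 1 to 2 for TGF-β in the presence of NH4Cl, beside 879. Calls of all genes went to 1674, 2322 and 2274 from 47, 127 and 117, and to 1 for TGF-β in the absence and 1 in the presence of NH4Cl. With replicates 1 and 2 alone the panel had 2, 1 and 2 calls in these 3 comparisons, and all genes 1293, 1740 and 1630. With only the groups compared, all genes had 0 calls in each of the 3. With no filter they had 23, 51 and 39, and scaled to a common sum 68 against TGF-β and 58 for both agents against control.

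With 1 library left out, calls of all genes ran from 0 to 29 for NH4Cl against control, from 3 to 133 for NH4Cl + TGF-β against TGF-β, from 2 to 57 for both agents against control, from 0 to 1 for TGF-β against control and from 0 to 1 for the interaction. With the block, and 1 library or 1 replicate number left out, the panel had 0 to 2 calls for NH4Cl against control, 1 to 2 for NH4Cl + TGF-β against TGF-β, where SESN1 was added without TGF-β replicate 2, and 1 to 2 for both against control. Calls of all genes with the block, in the same order, were 705 to 1398, 1249 to 1798 and 1169 to 1720 with 1 library left out, 273, 546 and 627 without replicate 1, 218, 580 and 625 without replicate 2, and 1147, 1653 and 1605 without replicate 3.

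Log2 fold changes that changed sign belonged to genes without a call in that fit. With replicates 1 and 2 alone BTG2 was at -0.02 against control and -0.07 against TGF-β. With 1 library left out, against control, CDKN1A ran from -0.15 to 0.28, BTG2 from 0.00 to 0.06, TP53INP1 from -0.01 to 0.15, DDIT4 from -0.44 to 0.92, SESN2 from -0.10 to 0.51, DDIT3 from -0.10 to 0.78 and CEBPB from -0.01 to 0.49. Against TGF-β, CDKN1A ran from -0.06 to 0.35, BTG2 from -0.05 to 0.09, MDM2 from -0.15 to 0.01, TP53INP1 from 0.00 to 0.21, RRM2B from -0.07 to 0.04, DDIT4 from -0.26 to 1.17 and SESN2 from -0.12 to 0.62. With the block, BTG2 ran from -0.03 to 0.09 and TP53INP1 from -0.03 to 0.16 against control. Against TGF-β with the block, BTG2 ran from -0.07 to 0.13, TP53INP1 from -0.04 to 0.21 and RRM2B from -0.08 to 0.05.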

Other observations

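FAS was picked here after its values with TGF-β had been seen, and neither comparison with TGF-β passed the test, with an adjusted p of 1.000 in both without the block and of 1.000 and 0.660 with it in limma. In each of the 3 replicate numbers it was at least as high with TGF-β as in control cells, at 2.13, 2.26 and 2.46 FPKM against 1.81, 2.26 and 2.27 FPKM. In the presence of NH4Cl it was lower with TGF-β in each number, at 2.13, 2.08 and 2.19 FPKM against 2.50, 2.63 and 2.67 FPKM, and these groups did not overlap. The interaction was -0.28 on the log2 scale and negative in 3 of 3 replicate numbers, at -0.32, -0.24 and -0.28. It did not pass the test over all genes, with an adjusted p of 1.000 without the block and 0.992 with it in limma. The lowest FAS library held 130 reads, at which counting error is 8.77%.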
